A study of Saccharomyces cerevisiae and Saccharomyces paradoxus with 16 samples.

Results

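Divergent CUT pairs are places where 2 cryptic unstable transcripts start close together and run away from each other on opposite strands. They were collected from the CUT annotations of 4 yeast strains by position alone: the minus-strand CUT had to lie to the left of the plus-strand CUT on the same chromosome or contig, the CUTs could not overlap, and their starts (the right end of the minus CUT and the left end of the plus CUT) could be at most 600 bp apart. Rows labelled chrXII were left out, because in 3 of the annotations this label covers both chromosome XII and chromosome XIII. The rule found 396 pairs, made of 792 of the 8140 CUTs searched, from 9377 CUTs annotated in all. S288c had 66 pairs, Σ1278b had 99, JAY291 had 97 and N17 had 134. No CUT belonged to more than 1 pair.

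CUTs are RNA polymerase II transcripts that the Nrd1-Nab3-Sen1 complex terminates early and that the nuclear exosome, with its exonuclease Rrp6, then degrades, so that they are seen mainly in cells without Rrp6. Many arise at nucleosome-free regions, both upstream of genes and at gene ends, and yeast promoters are known to fire in both directions. Each direction has its own preinitiation complex, so a divergent pair puts 2 separately initiated transcripts beside each other.

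The study sequenced poly(A) RNA, with strand kept, from wild type (WT) and rrp6Δ cells of each strain, grown in YPD at 30 °C to mid-log phase. S288c is the reference laboratory strain of Saccharomyces cerevisiae, Σ1278b a laboratory strain able to grow as filaments, JAY291 a strain derived from bioethanol production, and N17 a Saccharomyces paradoxus isolate. Each of the 8 groups had 2 libraries, but the deposited table of each strain gives a single value per CUT and genotype, averaged over replicates by the authors, so no spread between replicates and no test could be had for any value below. In S288c the WT carried his3delta1, lys2delta0, leu2delta0 and ura3delta0, and the mutant carried rrp6::KanMX with his3delta1, leu2delta0, ura3delta0 and met15delta0. In Σ1278b the WT carried ura3-52, leu2::hisG and his3::hisG, and the mutant rrp6::KanMX with his3delta1, leu2delta0 and ura3delta0. Marker alleles therefore differed between WT and mutant in these strains, as well as RRP6. JAY291 cells were WT or rrp6::KanMX, while all N17 cells carried HO::lox-Kan-lox, with rrp6::NatMX in the mutant. Coverage here is the authors' average per-nucleotide read coverage of a CUT after their normalization to mapped reads, and length is the annotated extent in nt.

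The intervals between the starts are shown first for S288c, whose annotation uses the R64 genome given by RefSeq. These are the pairs with the highest summed rrp6Δ coverage and those with the closest starts, named here by the genes on either side, because they carry the contrasts described below. The minus-strand partner starts just left of each sequence and runs left, and the plus-strand partner starts just right of it and runs right. Of the 494 bp at URA2 and TRK1 the middle 300 bases are given, and the other intervals are whole. Capitals mark TATAAA on either strand and runs of at least 7 A or 7 T.
URA2 and TRK1, middle, chrX:173184-173483, plus strand: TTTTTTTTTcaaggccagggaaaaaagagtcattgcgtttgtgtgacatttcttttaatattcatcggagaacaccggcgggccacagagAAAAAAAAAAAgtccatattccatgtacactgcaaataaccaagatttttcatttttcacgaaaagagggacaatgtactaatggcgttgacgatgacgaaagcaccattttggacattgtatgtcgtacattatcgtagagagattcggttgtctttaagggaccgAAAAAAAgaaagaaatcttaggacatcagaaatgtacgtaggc
AIM9 and SER3, chrV:321927-322187, plus strand: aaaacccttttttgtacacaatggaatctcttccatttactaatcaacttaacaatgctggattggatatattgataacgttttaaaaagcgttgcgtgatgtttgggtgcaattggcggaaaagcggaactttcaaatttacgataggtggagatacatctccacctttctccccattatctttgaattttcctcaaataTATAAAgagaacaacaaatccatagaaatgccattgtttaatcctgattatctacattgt
NAB2 and GPG1, chrVII:280571-280756, plus strand: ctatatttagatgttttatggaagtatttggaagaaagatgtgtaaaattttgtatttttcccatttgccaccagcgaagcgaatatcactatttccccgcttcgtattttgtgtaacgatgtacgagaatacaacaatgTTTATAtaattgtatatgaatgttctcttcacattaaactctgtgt
NRD1 and RAD50, chrXIV:174665-174859, plus strand: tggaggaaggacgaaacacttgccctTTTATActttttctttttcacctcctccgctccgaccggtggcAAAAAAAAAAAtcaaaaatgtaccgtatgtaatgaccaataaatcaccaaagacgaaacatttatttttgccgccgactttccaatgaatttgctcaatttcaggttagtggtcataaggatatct
UTP5 and HPT1, chrIV:1269659-1269862, plus strand: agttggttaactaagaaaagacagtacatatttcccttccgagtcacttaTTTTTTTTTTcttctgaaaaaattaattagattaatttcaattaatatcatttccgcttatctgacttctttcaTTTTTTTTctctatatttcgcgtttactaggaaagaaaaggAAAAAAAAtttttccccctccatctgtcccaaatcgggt
MNT4 and FRE4, chrXIV:739317-739349, plus strand: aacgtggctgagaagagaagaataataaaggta
TPC1 and ASK10, chrVII:677555-677615, plus strand: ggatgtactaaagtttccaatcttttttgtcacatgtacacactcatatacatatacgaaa
GPM1 and NNR2, chrXI:164814-164895, plus strand: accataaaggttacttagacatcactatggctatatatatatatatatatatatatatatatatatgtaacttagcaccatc

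TATAAA occurred once in each of the intervals at SER3, NAB2 and NRD1, and in the SER3 interval it lay on the plus strand, that of the bright partner. In the NAB2 and NRD1 intervals it lay on the minus strand, again that of the brighter partner. The printed middle of the interval at URA2 and TRK1, the brightest pair, held no TATAAA, and the rest of that interval is not shown. The interval at UTP5 and HPT1 held no TATAAA but 3 runs of A or T, and the 3 shortest intervals held neither. None of the printed stretches held the Reb1 core TTACCCG or the Rap1 core CCCATACA. The interval at GPM1 contains a long alternation of T and A, and its A+T content of 76.8% is the highest of those printed.

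Pairing was uncommon in every strain, and its share was highest in the S. paradoxus strain. In N17 12.6% of the searched CUTs were in a pair (95% Wilson interval 11.3 to 14.1%). The share was 9.80% in Σ1278b (8.58 to 11.2%), 8.55% in JAY291 (7.47 to 9.78%) and 7.66% in S288c (6.49 to 9.01%). The N17 interval did not overlap those of the other strains, but this depended on the rule. Without the 25% of CUTs lowest in rrp6Δ the shares were 11.0% in N17 (9.59 to 12.7%) and 10.03% in Σ1278b (8.61 to 11.6%), and with a limit of 300 bp they were 7.80% (6.74 to 9.02%) and 6.04% (5.08 to 7.16%), so that the intervals of these strains overlapped. These intervals cover counting error only, and the partners of a pair are not independent. Each annotation has its own genome, read depth and CUT calls, and the part of these in the counts was not tested. JAY291 has contigs in place of chromosomes, so that pairs across contig ends are lost, and 10 and 7 of its pairs lay on contigs that the study assigned to chromosomes XII and XIII.

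Divergent neighbours were more numerous than convergent ones at the same spacing. Convergent pairs, in which a plus-strand CUT ends within 600 bp of the end of a minus-strand CUT to its right, numbered 78 in N17, 79 in JAY291, 68 in Σ1278b and 50 in S288c. Divergent pairs were thus 1.72, 1.23, 1.46 and 1.32 times as many. Convergent pairs are counted between transcript ends and divergent ones between starts, and the annotation of ends rests on where coverage fades. CUTs that overlapped were left out of both counts, and no interval was computed for these ratios.

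The rule limits the distance between the starts to 600 bp, so the distances and shares below are descriptions only. In S288c the median distance was 287.5 bp (quartiles 183 and 368 bp), and 37 of 66 pairs had starts at most 300 bp apart. The median was 222 bp (152 and 400.5 bp) in Σ1278b, with 61 of 99 pairs up to 300 bp. It was 248 bp (151 and 416 bp) in JAY291, with 58 of 97, and 256.5 bp (146 and 372 bp) in N17, with 83 of 134. Between the ends of convergent pairs the medians were 303.5 bp in S288c, 269.5 bp in Σ1278b, 243 bp in JAY291 and 326 bp in N17. Very close starts were rare in S288c, where 1 pair lay under 50 bp and 3 lay from 50 to 99 bp, while Σ1278b had 10 and 9, JAY291 5 and 6, and N17 8 and 7. The closest starts were 33, 5, 32 and 1 bp apart. At the 600-bp limit itself, the S288c pair just inside was CUT54 and CUT1114 (594 bp, rrp6Δ coverage 2.16 and 6.12), and the pair just outside was CUT356 and CUT16 (610 bp, 3.08 and 2.05).

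**Figure D1:**
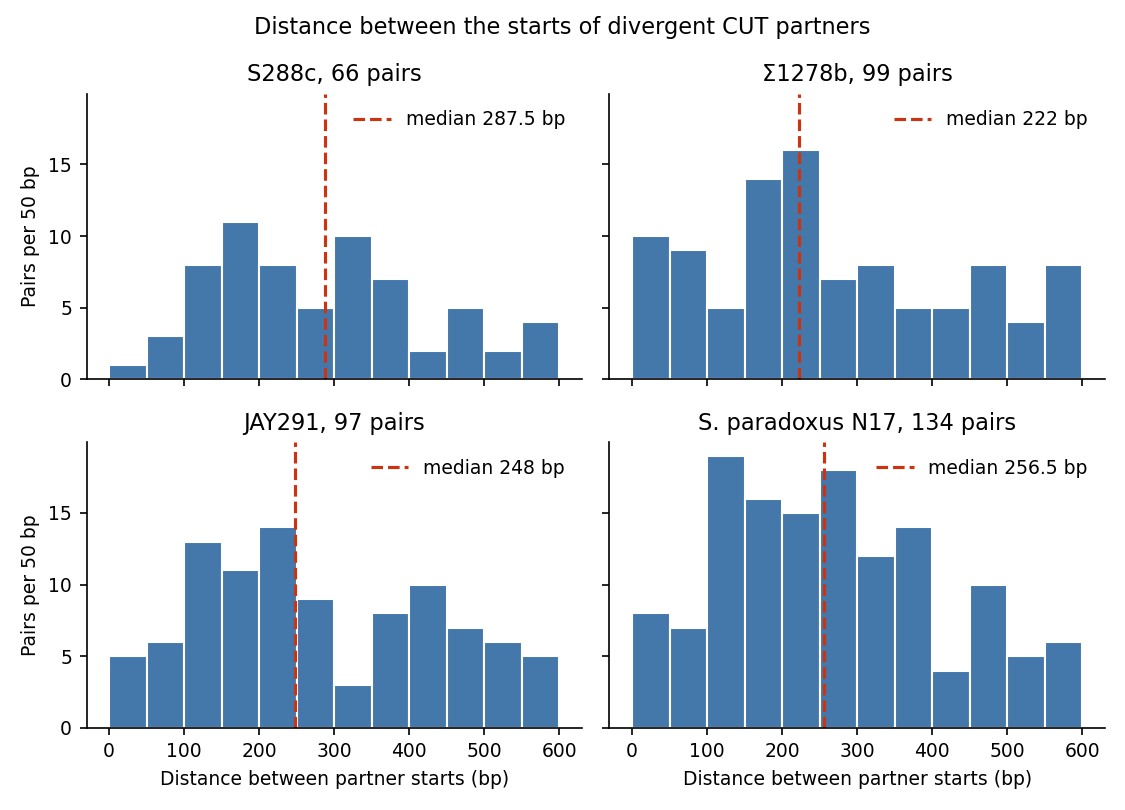
Distance in bp between the starts of the partners (x axis) against the number of pairs per 50 bp (y axis) in each strain, with the median as a dashed line. The medians lie between 222 and 287.5 bp, and S288c has few pairs under 100 bp.

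The partners of a pair were often unequal in abundance without Rrp6. The ratio of the higher over the lower partner, with 1 added to each coverage, had a median of 1.94 for S288c, 2.07 for Σ1278b, 1.80 for JAY291 and 2.05 for N17. The counts that follow are in this order of strains. The partners lay within 2-fold of each other in 34 of 66, 48 of 99, 55 of 97 and 67 of 134 pairs. They differed by at least 4-fold in 11, 31, 24 and 37 pairs and by at least 10-fold in 6, 8, 13 and 19. The most unequal pairs reached 51.0, 226, 62.8 and 263-fold. Neither strand was favoured in JAY291, where the minus partner was higher in 49 of 97 pairs, and the minus partner was higher in 37 of 66, 59 of 99 and 73 of 134 pairs in the other strains.

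The level of a CUT said little about the level of its partner. Across pairs, Spearman's rho between minus and plus partner rrp6Δ coverage was 0.10 over the 66 pairs of S288c, 0.30 over the 99 of Σ1278b, 0.12 over the 97 of JAY291 and 0.15 over the 134 of N17. The pairs of a strain share the same libraries, so these values are descriptions only. For length, rho was -0.08, 0.13, 0.17 and 0.09. For the ratio of rrp6Δ over WT coverage it was 0.05, 0.08, -0.11 and -0.12.

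**Figure D2:**
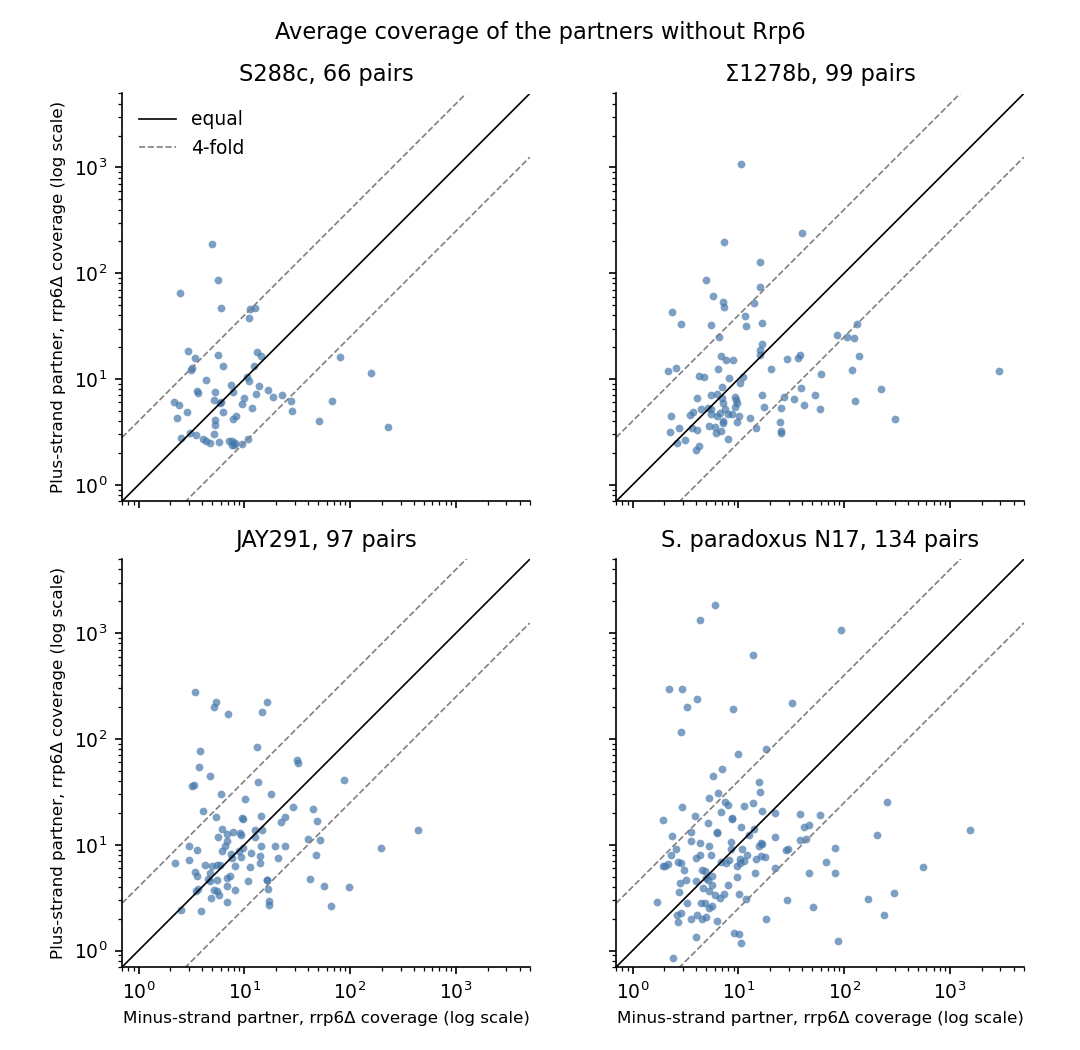
Average rrp6Δ coverage of the minus-strand partner (x axis) and of the plus-strand partner (y axis), both on log scales, with a point for each pair and lines at equality and at 4-fold. The points spread widely around the line of equality, and most of the brightest pairs have a single bright partner.

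The partner that was higher without Rrp6 was usually the higher in WT as well. This held, in the same order of strains, for 52 of 66, 83 of 99, 72 of 97 and 107 of 134 pairs. The increase over WT was counted separately, with the same constant added to each coverage as in the ratio between partners. With this constant, the brighter partner had the smaller rrp6Δ over WT ratio in 27, 54, 43 and 55 pairs, so about as often as not. Among pairs with a difference of at least 4-fold it had the smaller ratio in 8 of 11, 18 of 31, 17 of 24 and 11 of 37. In N17 the brighter of such partners thus more often rose further with this constant. These counts were not repeated with a smaller constant. The comparison of paired with unpaired CUTs below changed with it, so the counts may also depend on the constant.

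Lengths differed within a pair about as much as coverage did. The longer partner was 2.21, 1.87, 1.91 and 1.69 times as long as the shorter at the median, and up to 17.1, 14.4, 16.3 and 10.2 times. The longer partner was the more abundant in 31 of 66, 49 of 99, 51 of 97 and 74 of 134 pairs, so length did not tell which partner was brighter. From the far end of the minus CUT to the far end of the plus CUT, a pair spanned a median of 1215, 1434, 1341 and 1353.5 bp.

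CUTs in pairs were somewhat more abundant than the other CUTs searched, and most of all in WT cells. In N17 the median rrp6Δ coverage was 7.67 for paired and 5.96 for unpaired CUTs, and the median WT coverage 1.07 and 0.629. The rrp6Δ medians were 8.93 and 7.43 for JAY291, 7.78 and 5.98 for Σ1278b, and 6.47 and 5.55 for S288c. The WT medians of these strains were 1.01 and 0.683, 1.05 and 0.610, and 0.905 and 0.718. Paired medians were thus 16.6 to 30.1% above unpaired ones without Rrp6 and 26.0 to 72.5% above them in WT. The binomial interval of the paired rrp6Δ median ran from 6.72 to 9.04 for N17, 6.85 to 10.2 for Σ1278b and 5.78 to 7.74 for S288c, each above the unpaired median. For S288c this was lost in 3 alternatives, where the paired over unpaired ratio had an interval of 0.952 to 1.40 with a limit of 300 bp, 0.957 to 1.33 with 1000 bp and 0.987 to 1.55 without the 25% of CUTs lowest in rrp6Δ. For JAY291 it ran from 7.43 to 10.2, with the unpaired median at its lower bound. For WT the paired interval of S288c, 0.590 to 1.27, held the unpaired median. The lowest bound among the other strains was 0.729, above the unpaired medians of all 3.

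Paired and unpaired CUTs had similar lengths, while their increase over WT depended on the constant added to coverage. The median length was 470 nt for paired and 468 nt for unpaired CUTs in N17, and for JAY291 these were 397 and 402 nt. They were 458 and 438 nt for Σ1278b, and 405.5 and 406 nt for S288c. With 1 added to each coverage, 48 of the 132 paired CUTs of S288c rose at least 4-fold over WT (36.4%), against 31.9% of all CUTs searched. In Σ1278b it was 80 of 198 (40.4%) against 40.5%, in JAY291 107 of 194 (55.2%) against 57.5%, and in N17 98 of 268 (36.6%) against 41.8%. These shares lie close to the background. The median ratio of rrp6Δ over WT in paired CUTs was 1.04 times that of unpaired CUTs for S288c. It was 1.02, 0.975 and 0.955 times for the other strains in the order above, each with an interval that held 1, as for S288c. A constant of 1 is larger than every unpaired WT median. With 0.1 in its place the 4 values were 0.990, 0.847 (0.695 to 1.06), 0.876 (0.750 to 1.03) and 0.720 (0.624 to 0.826), so that paired CUTs of N17 rose less than unpaired ones with this constant. Both partners passed 4-fold in 8, 17, 29 and 13 pairs, and neither did in 26, 36, 19 and 49.

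In S288c the genes around the pairs could be read from the R64 annotation, with each gene taken at its annotated coding limits. The middle of the interval lay between the start of a gene and the end of another in 34 of 66 pairs, between 2 gene starts in 16, between 2 gene ends in 10, inside a gene in 5 and near a chromosome end in 1. A point 150 bp upstream of the CUT start gives a measure that unpaired CUTs share. It lay between 2 gene ends for 18 of 132 paired CUTs (13.6%, Wilson interval 8.80 to 20.5%) and 82 of 1592 unpaired CUTs (5.15%, 4.17 to 6.35%). It lay inside a gene for 12.9% of paired (8.20 to 19.7%) and 23.1% of unpaired CUTs (21.1 to 25.2%), and between 2 gene starts for 24.2% (17.7 to 32.2%) and 17.6% (15.8 to 19.5%). Partners share their surroundings, so the intervals of the paired CUTs are too narrow. With each coding sequence extended by 50 bp before its start and 100 bp past its end, the pairs between 2 gene ends fell from 10 to 3 and those inside a gene went from 5 to 16. The upstream points between 2 gene ends then were 3.03% of paired and 2.76% of unpaired CUTs, so the excess of paired CUTs at gene ends was not seen with these limits. Points inside a gene were then 29.5% of paired (22.4 to 37.8%) and 38.9% of unpaired CUTs (36.5 to 41.3%), with overlapping intervals.

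Paired CUTs ran over genes less often than the others. At least 50% of the length was antisense to a gene for 43 of 132 paired CUTs (32.6%, 25.2 to 41.0%), against 839 of 1592 unpaired CUTs (52.7%, 50.2 to 55.1%). Mostly outside genes were 79 paired (59.8%, 51.3 to 67.8%) and 704 unpaired CUTs (44.2%, 41.8 to 46.7%), and sense to a gene were 10 (7.58%) and 49 (3.08%). By pair, both partners were mostly outside genes in 25, 24 joined an antisense CUT to a CUT outside genes, and both were antisense in 7. All 7 of the last lay between 2 gene ends, with each partner antisense to genes on its own side. Such a place largely follows from 2 antisense partners that run apart, so it is no separate result. These 7 pairs include MET3 and SPC1, RNR1 and TDA2, and FMP33 and PIR5. RNR1 encodes the large subunit of ribonucleotide reductase, and MET3 the ATP sulfurylase of sulfate assimilation.

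**Figure D3:**
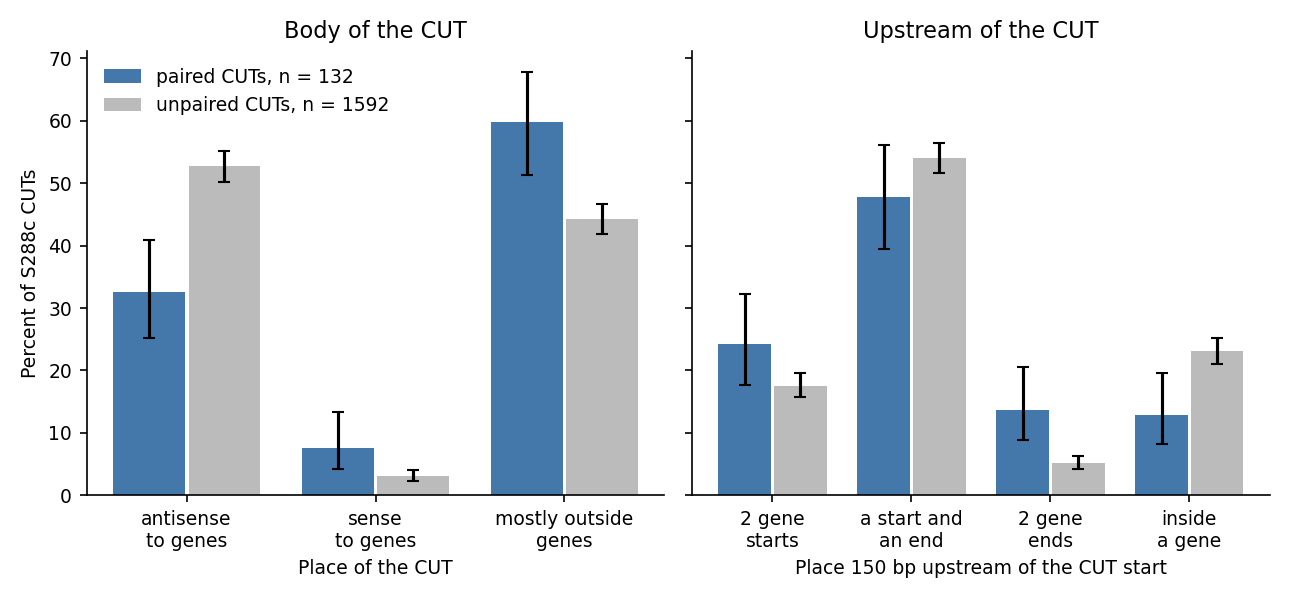
Percent of S288c CUTs in divergent pairs and of all other CUTs searched, by what the CUT runs over (left) and by the place 150 bp upstream of its start (right), at the annotated coding limits, with 95% Wilson intervals as error bars. Paired CUTs are less often antisense (32.6% against 52.7%) and more often upstream between 2 gene ends (13.6% against 5.15%).

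In the 34 pairs between a gene start and a gene end, the partner running toward the gene start was usually the shorter. It was shorter in 26 of 34 pairs, with a median of 250.5 nt against 510.5 nt for the partner running toward the gene end. The latter was mostly antisense to a gene in 23 of the 34 pairs, overlapped a gene by less than 50% of its length in 4 and overlapped no gene in 7. A CUT that runs into the end of a gene can only be antisense to that gene, so these counts describe overlap alone. For the partner toward the gene start, the rrp6Δ coverage was the higher in 21 of 34 pairs, with medians of 7.42 and 6.18, and the WT coverage in 17, with medians of 1.07 and 0.553. The bright pairs described next are of this kind for the most part.

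The brightest S288c pair lay between URA2, which encodes the enzyme of the first steps of pyrimidine synthesis, and TRK1, a potassium transporter (chrX:173087-173580, R64). Its minus partner CUT2006 (387 nt) runs toward the URA2 start and had a coverage of 11.9 in WT and 228 in rrp6Δ. Its plus partner CUT489 (559 nt) lies almost wholly antisense to TRK1 and had 0 in WT, as listed, and 3.49 in rrp6Δ. The partners differed 51.0-fold, the most of any S288c pair. At SER3, an enzyme of serine synthesis whose promoter is known to be crossed by a regulatory noncoding transcript, the plus partner CUT2005 (912 nt) had 81.3 in WT and 191 in rrp6Δ. Its minus partner CUT884 (454 nt), antisense to AIM9, had 0.247 and 4.95, a 32.2-fold difference between the partners. SER3 starts at 322686 on chromosome V, so that CUT2005, from 322188 to 323099, crosses the promoter and enters the coding sequence.

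Upstream of HPT1, the hypoxanthine-guanine phosphoribosyltransferase of purine salvage, the plus partner CUT1990 (248 nt) had 41.7 in WT and 85.4 in rrp6Δ. The minus partner CUT1013 (664 nt) covers the end of UTP5, a protein of the small ribosomal subunit processome, in antisense, and had 0.258 and 5.60. In these 3 loci the partner toward a gene of nucleotide or serine metabolism was bright and its counterpart was faint. The loci were named for both summed coverage and inequality, so this contrast follows from that choice. All 3 bright partners lay above the upper quartile of paired CUTs in WT, which was 2.31, and the URA2 partner had the lowest WT coverage of the 3.

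At NAB2 and NRD1, genes for RNA-binding proteins of nuclear RNA processing and surveillance, the minus partner runs over the gene itself. CUT2000 (1701 nt), over the whole of NAB2, had 79.1 in WT and 157 in rrp6Δ, and CUT1634 (568 nt) on the other side had 1.10 and 11.5. CUT1986 (2191 nt), over the whole of NRD1, had 26.0 and 81.1, and CUT1808 (458 nt), toward RAD50, had 1.04 and 16.2. Reads of the mRNA and of a CUT on the same strand cannot be told apart in such long sense CUTs. The sixth pair by summed coverage lies within COM2 (chrV:421825-422176), with 32.8 in WT and 68.0 in rrp6Δ for the sense CUT1981 (222 nt) and 0.311 and 6.23 for the antisense CUT1130 (492 nt).

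Pairs were also found at other genes whose use of alternative start sites or early termination is well known. Of the 8 genes looked up (NRD1, IMD2, IMD3, IMD4, URA2, URA8, ADE12 and LEU4), 6 lie on the chromosomes searched, and 5 of these had a pair within 600 bp, ADE12 being without. A coding start within 600 bp of the interval itself was found for 4 of these 6, against 63 of the 5010 protein-coding genes on the same chromosomes (1.26%). The paper names NRD1, IMD3, URA2, URA8, ADE12 and LEU4 among its conserved CUT loci. CUTs at listed genes were thus known beforehand, so these shares are no measure of enrichment for pairs. Upstream of IMD2, an IMP dehydrogenase of guanine nucleotide synthesis, CUT1979 (342 nt) starts 258 bp before the coding sequence and ends 84 bp inside it, and had 9.62 in WT and 64.5 in rrp6Δ. Its minus partner CUT163 had 0.0347 and 2.48, an 18.8-fold difference. At URA8, a CTP synthase, CUT1821 starts 188 bp before the coding sequence and had 3.48 and 16.9, against 1.12 and 5.60 for CUT1015 toward VPS25. At LEU4 and MET4, an enzyme of leucine synthesis and the activator of sulfur genes, CUT1925 toward LEU4 had 3.43 and 27.6, and CUT1123 toward MET4 had 0.826 and 6.19. The partner on the strand of the listed gene was the brighter at NRD1, IMD2, URA8 and LEU4, and also at URA2. The genes were listed for known alternative starts or early termination, so this direction is no separate result. At NRD1 that partner covers the whole gene, and reads of the mRNA cannot be told apart from it.

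Pairs were also found at the starts of some glycolytic genes. Of 15 glycolytic genes on the chromosomes searched, 5 had a coding start within 600 bp of an interval: ENO1 (enolase), GPM1 (phosphoglycerate mutase), TDH1 and TDH3 (glyceraldehyde-3-phosphate dehydrogenase) and TPI1 (triosephosphate isomerase). None of 105 ribosomal protein genes and none of 8 histone genes did, but with 1.26% of all protein-coding genes so placed, these zeros lie near the background and are no contrast. The gene lists were chosen with earlier results of these data known, so 5 of 15 is no measure of enrichment either. Among the glycolytic genes, HXK1, HXK2, GLK1, PGI1, PFK1, FBA1, TDH2, PGK1, ENO2 and CDC19 had no interval within 600 bp of their start. At each of the 5, a partner on the gene's strand started 218 to 450 bp before the coding sequence and stopped 42 to 104 bp short of it. Its rrp6Δ coverage was 18.2 at ENO1, 11.3 at GPM1, 5.62 at TDH1, 4.37 at TDH3 and 5.28 at TPI1. In WT the same partners had 1.97, 0.803, 1.04, 0.172 and 0.435. The partner on the other strand was brighter at GPM1, where CUT1966 (1215 nt, mostly antisense to NNR2) had 45.7 in rrp6Δ, and at TDH3, where CUT1530 had 9.82. It was fainter at ENO1 (13.1), TDH1 (2.40) and TPI1 (3.71).

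The closest starts in S288c were unremarkable in level. CUT104 and CUT711, 33 bp apart between MNT4 and FRE4, had 2.32 and 4.28 in rrp6Δ. CUT1508, antisense to TPC1, and CUT149, toward ASK10, were 61 bp apart and had 9.57 and 2.44. The pair at GPM1 and NNR2 was next, at 82 bp. The widest spacings were those of CUT54 and CUT1114, whose interval between YIL001W and SGN1 holds the centromere of chromosome IX, of CUT1675 and CUT1719 at YKL091C and CUE2 (592 bp, 12.2 and 13.3), and of CUT1297 and CUT1438 between CLN3 and CYC3 (569 bp, 7.45 and 8.76). CUT473 and CUT1800 between MET3 and SPC1 were also 569 bp apart, with 3.43 and 16.0. Evenly matched pairs existed too. CUT1099 and CUT1103 beside YAP1802 had 6.02 and 6.03, and CUT362 and CUT357 between SAM2 and LPP1, across a replication origin, had 3.10 and 3.08.

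**Figure D4:**
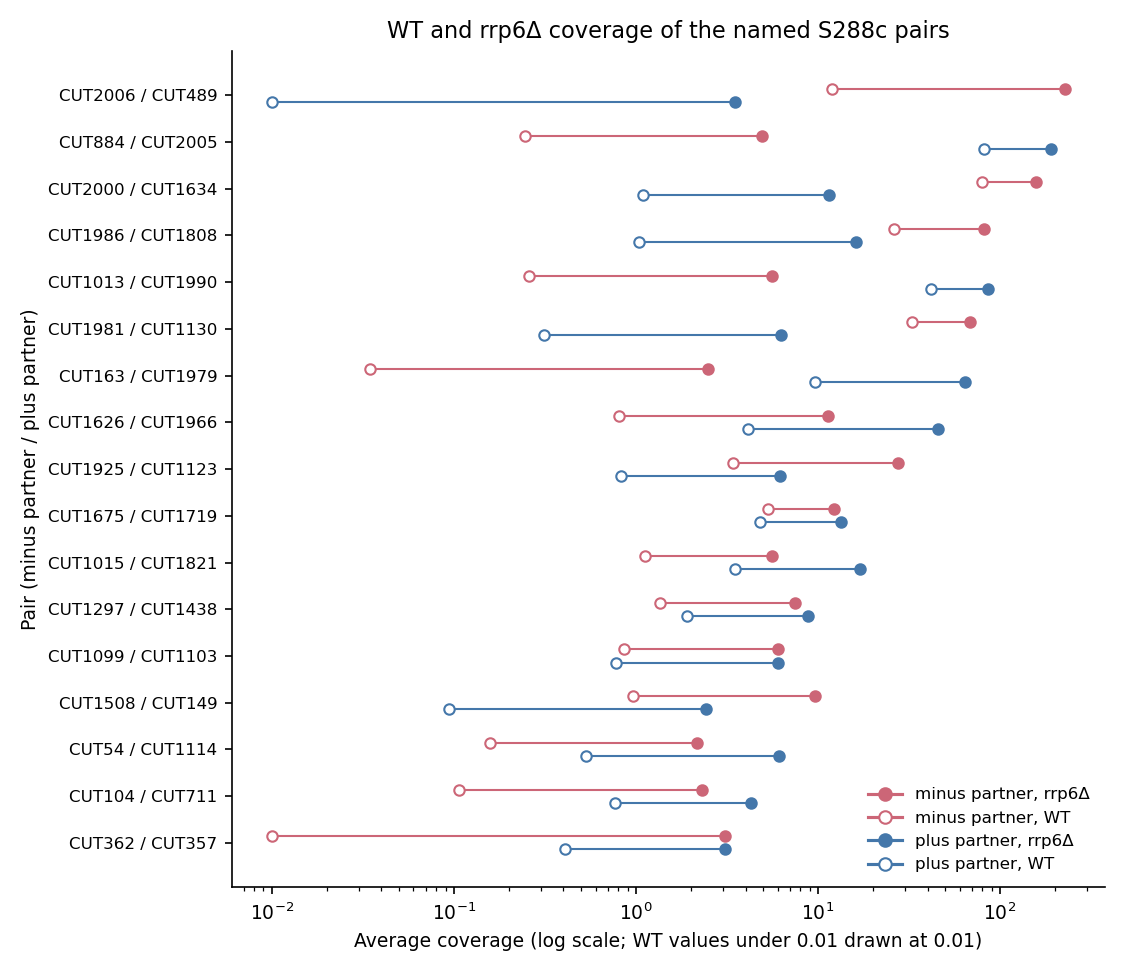
Average coverage on a log scale (x axis) of both partners of the named S288c pairs (y axis) in WT (open circles) and rrp6Δ (filled circles), the minus partner in red and the plus partner in blue. The brightest pairs hold a bright and a faint partner, such as 228 and 3.49 for CUT2006 and CUT489, and the fainter pairs are closer to even. The pairs were named in part by summed coverage and by inequality, and no S288c partner lay under 2.16 in rrp6Δ. This contrast therefore follows in part from the choice of pairs.

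The pair at LYS2 and TKL2 involves a marker gene and was chosen after its values were seen. Its minus partner CUT1734 (4396 nt) covers all of LYS2, the alpha-aminoadipate reductase gene of lysine synthesis, on the same strand, and had 0.0720 in WT and 13.7 in rrp6Δ. LYS2 is deleted in the WT strain (lys2delta0), and this allele is not among those given for the mutant, so genotype and loss of Rrp6 cannot be told apart here. The plus partner CUT1410 (2490 nt), antisense to TKL2, had 1.38 and 8.51.

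Upstream, TATAAA was similarly frequent for paired and unpaired CUTs, while runs of A or T were somewhat more frequent for paired ones. In the 300 bp before the start, searched on both strands, TATAAA was present for 39.4% of 132 paired CUTs (31.5 to 47.9%), 42.0% of unpaired CUTs, 48.5% of coding starts and 29.3% of all 300-bp tiles of the same chromosomes. TTACCCG was present for 4.55, 6.72, 8.03 and 1.83% of these windows, and CCCATACA for 3.03, 1.19, 1.04 and 0.638%. A run of 7 A or 7 T was present for 62.9% of paired (54.4 to 70.6%) and 52.9% of unpaired CUTs, 52.9% of coding starts and 24.9% of tiles. Windows of partners less than 600 bp apart overlap, so the paired windows are not independent. A+T content was 64.2% at the median of the intervals (range 48.8 to 83.9%) and 61.7% over the chromosomes searched. By distance from the middle of the interval it was 63.4% within 50 bp and 60.5% at 450 to 499 bp.

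The first 150 nt of the transcripts, on their own strand, carried the motifs bound by the termination factors more often than the first 150 nt of coding sequences. Nab3's TCTT was present in 70.6% of 126 paired CUTs of at least 150 nt, 73.0% of unpaired CUTs, 48.1% of coding sequences and 63.4% of 150-bp tiles. Nrd1's GTAG was present in 39.7, 46.0, 26.8 and 32.2%, and its GTAA in 57.1, 54.5, 38.9 and 47.2%. TCTT together with either Nrd1 motif was present in 54.8% of paired (46.1 to 63.2%) and 55.1% of unpaired CUTs, 24.8% of coding sequences and 40.1% of tiles. The share in paired CUTs was close to that in unpaired CUTs for each of these motifs.

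In the other strains the brightest pairs were more extreme and again one-sided, though pairs were named in part for being unequal. In Σ1278b, CUT4383 on chromosome VII (289 nt) had 944 in WT and 2904 in rrp6Δ, and its plus partner CUT3851 (781 nt), 364 bp away, had 0.0693 and 11.9. CUT4381 on chromosome VIII (189 nt) had 490 and 1082, and its minus partner CUT3779, 36 bp away, had 0.793 and 10.5. The next was CUT4375 with CUT2762 on chromosome X, with 303 and 4.17 in rrp6Δ. The closest starts in this strain, 5 bp apart, belonged to the faint CUT2175 and CUT2844 (2.31 and 4.43).

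In JAY291 the pair of CUT6652 (177 nt) and CUT6111 (476 nt), 87 bp apart, had 438 and 13.9 in rrp6Δ and 15.4 and 2.83 in WT. CUT6640 had 404 in WT and 277 in rrp6Δ, so this CUT was lower without Rrp6 on average, beside 0.0570 and 3.43 for its partner CUT4690, and this pair was the most unequal of the strain. CUT6635 with CUT6214 had 225 and 16.4 in rrp6Δ, and CUT6636 with CUT5198, 596 bp apart, had 226 and 5.45. The closest starts were 32 bp apart, and their CUT5566 and CUT5550 were even, at 7.63 and 7.52.

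In N17 the plus partner CUT9273 on chromosome XI (579 nt) had 125 in WT and 1846 in rrp6Δ, against 0.861 and 6.01 for CUT7867, 75 bp away. CUT9269 on chromosome VIII had 20.7 and 1333.5, against 0.160 and 4.38 for CUT7521. CUT9270 on chromosome XVI had 58.5 and 1549, against 4.97 and 13.8 for CUT8636. With 1 added to each coverage, these 3 bright N17 partners rose 14.6, 61.6 and 26.0-fold over WT, whereas CUT4383, the brightest of Σ1278b, rose 3.08-fold. The closest starts of any strain, 1 bp apart, belonged to CUT8866 and CUT7889 on chromosome II, with 22.3 and 6.09 in rrp6Δ.

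Pairs could be followed across Σ1278b, JAY291 and N17 where both partners are in the study's list of 855 CUTs conserved in all 4 strains. S288c could not be followed, because the coordinates given for it in that list are those of Σ1278b. That list was drawn up by the study on these same libraries, so it is not independent evidence of conservation. It also takes in CUTs that the study brought back in a strain after filtering, because the other strains had them. Both partners were in the list for 19 of 99 pairs in Σ1278b (19.2%), 19 of 97 in JAY291 (19.6%) and 17 of 134 in N17 (12.7%). Of single CUTs, 36.9, 36.1 and 31.0% of the paired and 35.0, 37.8 and 33.8% of the unpaired were in the list, so the shares were close. Together the listed pairs made 24 loci, of which 12 met the pair rule in all 3 strains, 7 in 2 and 5 in 1. Of these 5, 4 were labelled chrXII in the other annotations and could not be counted there. Without CUTs that stand outside the coverage order of the tables, as described with the processing, 7 of the 12 loci remained pairs in 3 strains.

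In 8 of the 12 loci the same partner was the higher in all 3 strains, and in 7 the same partner was the longer. Only 4 of the 12 differed by at least 2-fold in every strain, and in each of these the same partner was the higher. Among the 7 loci left without CUTs outside the coverage order, the same partner was the higher in 6, and 2 differed by at least 2-fold in every strain, those on chromosomes V and VII described next. The clearest was the chromosome V locus of CUT2989 and CUT4347 in Σ1278b, with rrp6Δ coverages of 4.95 and 85.9. The same locus had 5.15 and 199.9 in JAY291 (CUT5131 and CUT6633), and 2.88 and 117 in N17 (CUT7091 and CUT9162). On chromosome VII, CUT4035 and CUT4357 had 16.0 and 126 in Σ1278b, their counterparts 16.4 and 225 in JAY291 and 18.3 and 81.1 in N17. The plus partner was thus higher by 14.6 to 32.7-fold at the first locus and by 4.26 to 13.0-fold at the second.

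The reverse arrangement, with the minus partner higher, was seen in all 3 strains on chromosomes XV and II, but both loci rest in N17 on a plus partner outside the coverage order (CUT9314 and CUT9354) and are not among the 7. CUT3983 and CUT2527 on chromosome XV had 14.7 and 3.45, their counterparts in JAY291 had 17.3 and 2.93, and those in N17 had 10.6 and 1.18. CUT4199 and CUT2467 on chromosome II had 25.2 and 3.24, and the JAY291 and N17 counterparts had 16.9 and 3.85, and 9.04 and 1.48. The folds ran from 3.52 to 5.31 and from 3.69 to 6.18.

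Other loci did not keep their balance. On chromosome XI, the JAY291 partners had 438 and 13.9, those of Σ1278b (CUT4275 and CUT4066) 38.5 and 16.9, and those of N17 10.8 and 9.04, so a 29.4-fold difference in JAY291 was 1.17-fold in N17. On chromosome XIV, CUT4355 and CUT3868 had 118 and 12.2 in Σ1278b but 14.4 and 9.72 in JAY291 and 12.7 and 12.3 in N17. On chromosome I, CUT4318 and CUT4435 had 53.2 and 7.10 in Σ1278b and 47.7 and 7.99 in JAY291, but 3.04 and 5.81 in N17. The order of the partners was thus turned in N17 at this locus, whose plus partner is outside the coverage order in Σ1278b and in N17.

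Among loci that met the rule in fewer strains, the brightest lay on chromosome VII. Its minus and plus partners had 197 and 9.36 in JAY291 (195 bp apart) and 257 and 25.5 in N17 (212 bp), and 290 and 15.6 in Σ1278b, where the starts were 814 bp apart. On chromosome XI, CUT4346 and CUT4204 had 84.7 and 26.0 in Σ1278b and their counterparts 9.82 and 72.7 in N17, while in JAY291 they lay on different contigs. Another locus there was a pair only in Σ1278b (CUT3951 and CUT4317, 14.1 and 52.2, 89 bp apart), since its partners overlapped by 95 bp in JAY291 and 348 bp in N17.

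The spacing of the starts varied between strains. Over the 12 loci, the distance varied between strains by a median of 114 bp, and by at most 100 bp in 6. The steadiest was a chromosome VII locus, CUT3107 and CUT3405 in Σ1278b, with 327, 328 and 317 bp, and the least steady was the chromosome I locus, with 405, 110 and 499 bp. The annotated starts come from coverage, and how far they lie from initiation sites was not tested.

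**Figure D5:**
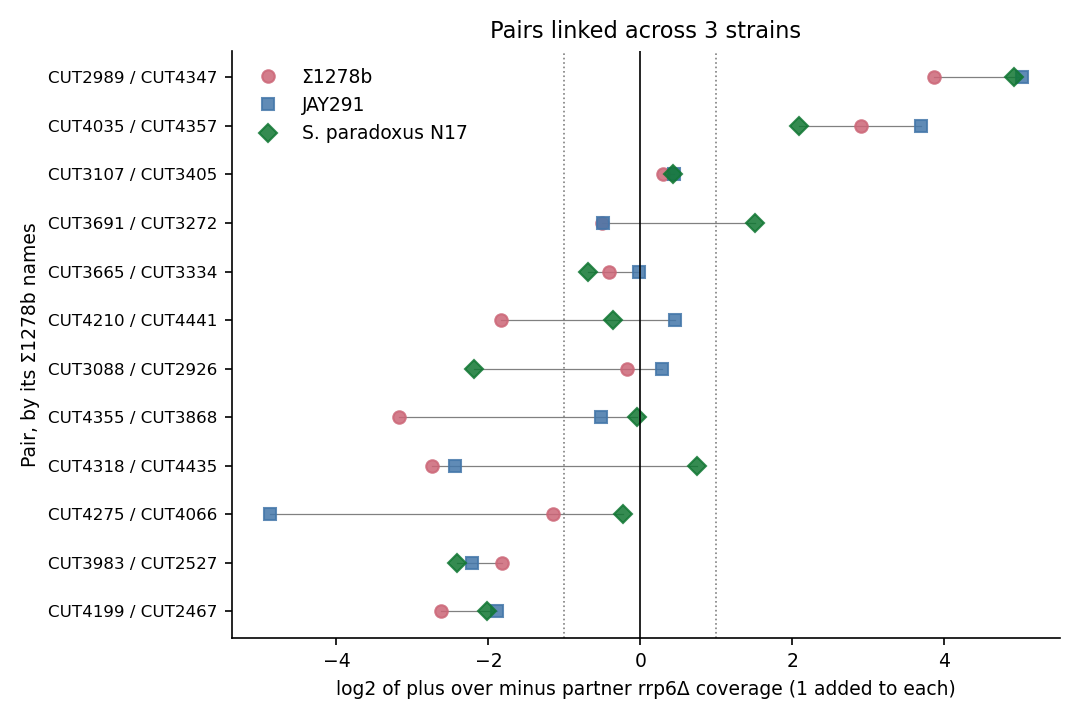
Difference between the partners, as log2 of plus over minus rrp6Δ coverage with 1 added to each (x axis), for the 12 loci that were pairs in Σ1278b, JAY291 and N17 (y axis, by their Σ1278b names), with dotted lines at 2-fold. At 4 loci all 3 strains lie beyond the same dotted line, and at 4 others the strains fall on both sides of 0.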

How the data were processed

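The deposited files are 4 CUT annotations, 1 for each strain. Per the labels and the study's methods, the authors mapped reads uniquely with Bowtie 0.12.7 to each strain's genome after removing rRNA reads. They computed per-nucleotide coverage with BEDTools 2.16.2, corrected it for first-nucleotide bias and mappability, scaled it by mapped reads and averaged replicates. CUTs were called with a hidden Markov model, merged within 450 bp, and dropped if poorly covered or shorter than 100 nt. Regions that differed between the strains were also edited by hand where possible. A CUT called in all strains but 1, and filtered out in the last, was brought back and counted as conserved. The deposited values are thus coverage (signal) averaged over replicates, so depth per library is unknown. Their fold change column was not used. Most rows of each table are in rising order of rrp6Δ coverage, and the rows outside that order (37, 53, 54 and 78 among the CUTs searched) were dropped in an alternative. Whether the latter are the CUTs brought back or edited by the study was not tested.

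Pairs were found with Python 3.11.15 and pandas 2.3.3 from analysis of starts and strands, checked on simulated data. Ratios had 1 added to each coverage. Wilson intervals (SciPy 1.17.1) and order-statistic intervals of medians are at 95%. S288c coordinates are on R64 and are given counting from 1, with RefSeq sequence and annotation, and no CUT ran past a chromosome end. Genomes of the other strains were not used here. Per the labels, poly(A) RNA of the replicates came from different kits (Oligotex or Dynabeads), except in N17.

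Pairs were named by rule: in S288c the 6 with the highest summed rrp6Δ coverage, the 3 closest and 3 widest, the 4 most and 2 least unequal, and those at 8 listed genes; in the other strains the 3 highest, 2 most unequal and the closest; and the 8 linked loci with the highest mean coverage. Some pairs were named outside this rule. The linked loci on chromosomes XV and II described above and the steadiest linked locus were chosen by their values. The pairs at MET3, RNR1 and FMP33 serve as examples. The members, lists and named-pair rule were chosen with earlier results of these data known.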

Additional observations from a re-analysis of the deposited data

How the results depend on the processing

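Using each CUT once changed nothing, since none was in more than 1 pair, and is not counted here. Of 180 other recomputed values, 147 stayed within their interval, or within 1.5 times for a count. Paired CUTs kept the higher median in all 20 recomputations of rrp6Δ coverage (1.10 to 1.64 times the unpaired median) and all 20 of WT coverage (1.22 to 2.05 times). The interval of the rrp6Δ ratio stayed above 1 in 10 of 10 for Σ1278b and N17, but in 2 of 5 for S288c, where it held 1 at 300 bp, at 1000 bp and without the lowest CUTs. A limit of 300 bp left 37, 61, 58 and 83 pairs in S288c, Σ1278b, JAY291 and N17, or 4.29, 6.04, 5.11 and 7.80% of CUTs. It also raised the paired over unpaired median of length in Σ1278b to 1.19 and of rrp6Δ coverage in N17 to 1.64. A limit of 1000 bp gave 9.45, 12.6, 10.8 and 16.2% of CUTs. A minimum length of 200 nt gave 6.28% in S288c and 7.06% in JAY291. Without the 25% of CUTs lowest in rrp6Δ, there were 41 pairs in S288c, 62 in JAY291 and 88 in N17, or 6.34, 7.29 and 11.0% of CUTs (10.03% in Σ1278b), the paired over unpaired WT median in Σ1278b was 1.40, and the rrp6Δ over WT ratio in N17 was 0.874 of the unpaired one. With 0.1 added in place of 1, this last measure was 0.847 in Σ1278b, 0.876 in JAY291 and 0.720 in N17, so the ratio depends on the constant. Loci that were pairs in 3 strains numbered 12, and 4 at 300 bp, 5 with the minimum length, 5 without the lowest CUTs and 7 without CUTs outside the coverage order. Extended coding sequences left 3 pairs between 2 gene ends and placed 16 inside a gene. Apart from fewer CUTs entering, the cause of these shifts was not tested. No paired analysis was possible because the replicates were averaged before deposit, and for the same reason no replicate could be left out.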
